A study of Mus musculus with 12 samples.

Results

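The genes described here are 10 axon guidance genes, the ligands Slit1, Slit2, Ntn1, Ntng1 and Sema3a and the receptors Robo1, Robo2, Dcc, Nrp1 and Nrp2, in the neocortex of mouse embryos at E13.5 (embryonic day). They were found by symbol in the platform's probe annotation, 10 of 15063 named genes on the array, and are read by 11 probes, 1 each and 2 for Dcc. RNA of the rostral and of the caudal end of the neocortex competed on the arrays, in 3 pools of MF1, an outbred strain, and in 3 pools of C57, an inbred one; per the labels a pool held tissue of 3 embryos. No allele, transgene or agent is named for either strain, and whole tissue was taken, so that each ratio averages progenitors, neurons and all other cells of the dissected piece. The 2 RNAs of a pool were hybridised together on 2 arrays, the dyes Cy3 and Cy5 exchanged between them, which made 12 arrays. Every value below is the log2 of rostral over caudal signal, positive where the gene was higher rostrally. Values in a pool are means of its 2 arrays.

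Slit proteins are secreted cues that repel growing axons and migrating neurons through Robo receptors. Netrin 1 is a secreted cue that attracts axons through Dcc, while netrin G1, the product of Ntng1, is anchored to the membrane and does not use Dcc. Semaphorin 3A repels axons through neuropilin 1, and neuropilin 2 serves other class 3 semaphorins; both neuropilins also bind forms of VEGF on blood vessels. In the developing forebrain these systems guide thalamocortical, callosal and corticofugal axons, and Slits and semaphorins also steer migrating interneurons.

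On the 12 arrays 17998 to 20997 of the 21998 probes were measured, and the spread of all ratios was wider on the C57 arrays than on the MF1 arrays (SD estimated from the median absolute deviation 0.74 ± 0.10 and 0.49 ± 0.09, SD, n = 6 arrays each). Strain and set of arrays coincide, so a strain difference and a difference between these sets cannot be told apart. The channel used as numerator was not stated; it was taken as Cy5, so the direction is a likely one. It rests on reference genes: genes known to be caudal, Nr2f1 (-1.14 ± 0.57, SD, n = 6 pools) and Lhx2 (-0.50 ± 0.13), came out below 0 and genes known to be rostral, Etv5 (0.54 ± 0.05) and Spry2 (0.50 ± 0.19), above 0; these 4 have the smallest p of their lists. As lists, 4 of 5 caudal reference genes lay below 0 (median -0.38) and 6 of 9 rostral ones above 0 (median 0.19); against their known side lay Emx2 (0.09 ± 0.27) and Fgf15 (-0.39 ± 0.61), Fgf17 (-0.05 ± 0.41) and Spry4 (-0.04 ± 0.98, n = 5). If the numerator were Cy3, every sign below would turn. The labels do not say whether a strain's pools were from different litters, so the p-values measure the spread between these pools.

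The promoter windows of the 4 members with the smallest p-values that have an entry in RefSeq's promoter table (GRCm38.p6) are shown first, since the values of these genes are described in most detail below, though 0 of them passed the adjusted threshold. Each line gives the 250 bases before the listed transcript start, 5′ to 3′ on the gene's strand; capitals mark the GC box GGGCGG on either strand. Slit2 and Nrp2 had negative ratios and Robo1 and Ntng1 positive ones. The Slit2 window is chr5:47982905-47983154 (plus strand), that of Nrp2 chr1:62703067-62703316 (plus), that of Robo1 chr16:72662899-72663148 (plus) and that of Ntng1 chr3:110143473-110143722 (minus).
Slit2: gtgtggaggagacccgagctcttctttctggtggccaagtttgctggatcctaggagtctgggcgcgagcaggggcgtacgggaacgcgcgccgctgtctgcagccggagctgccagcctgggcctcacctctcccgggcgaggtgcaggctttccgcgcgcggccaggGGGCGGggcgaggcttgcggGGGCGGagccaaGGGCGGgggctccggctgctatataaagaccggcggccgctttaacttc
Nrp2: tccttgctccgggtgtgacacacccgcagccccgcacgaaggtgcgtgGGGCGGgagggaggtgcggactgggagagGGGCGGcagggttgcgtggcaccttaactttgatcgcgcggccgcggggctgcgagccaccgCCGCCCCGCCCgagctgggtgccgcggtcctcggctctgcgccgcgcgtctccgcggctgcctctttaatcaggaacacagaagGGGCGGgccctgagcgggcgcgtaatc
Robo1: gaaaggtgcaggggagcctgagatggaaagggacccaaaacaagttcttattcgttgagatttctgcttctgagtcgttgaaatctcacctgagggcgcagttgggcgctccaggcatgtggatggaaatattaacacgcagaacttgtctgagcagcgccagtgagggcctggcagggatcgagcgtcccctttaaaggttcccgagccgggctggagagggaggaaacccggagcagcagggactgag
Ntng1: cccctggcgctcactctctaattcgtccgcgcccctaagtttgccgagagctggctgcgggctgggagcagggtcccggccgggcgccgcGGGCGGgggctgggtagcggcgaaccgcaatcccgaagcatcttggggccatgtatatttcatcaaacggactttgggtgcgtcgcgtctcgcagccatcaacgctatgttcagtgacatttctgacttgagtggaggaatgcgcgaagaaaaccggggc

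The windows of Slit2, Robo1 and Ntng1 lie inside the span that RefSeq gives the gene, and that of Nrp2 does not lie wholly inside it. In all, 7 of the 10 genes had an entry; Dcc, Slit1 and Ntn1 did not. GGGCGG, searched on both strands, stood 3 times in the Slit2 window, at 81, 61 and 49 bases before the start, 5 times in that of Nrp2, 1 time in that of Ntng1 and 0 times in that of Robo1. The box is found in 32.7% of all 32851 windows of this length. The half-site AGGTCA that Nr2f nuclear receptors bind and the homeodomain core TAATTA, both searched on both strands, stood 0 times in each of the 4 windows, against 14.0% and 4.84% of all windows. The windows of Slit2 and Nrp2 hold 69.6% and 72.4% G and C, those of Ntng1 and Robo1 62.4% and 56.0%, and the median over all windows was 52.4%.

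Over both strains, 0 of the 9 members that could be tested passed the adjusted threshold of 0.05 (limma on pool means, Benjamini-Hochberg over 14418 features, adjusted p between 0.353 and 0.918). Of all features tested, 0 passed, which is 0%, and 1295 (8.98%) had an unadjusted p under 0.05. Of the 9 members, 5 had an unadjusted p under 0.05. Dcc, Robo1 and Ntng1 were on the rostral side, where 4.34% of all features lay, and Slit2 and Nrp2 on the caudal side, where 4.64% did. The members were chosen with earlier results of these data known, so setting this count beside those shares is not a test. Limma on all 12 arrays, with a random block for each pool, passed 21 features (0.146%), again with 0 members among them. There 4 members, all of the 5 but Nrp2, had an unadjusted p under 0.05, as did 8.64% of all features. On pool means the count of 5 was 3 without MF1 pool 1 (7.37% of all features), MF1 pool 2 (8.12%) or C57 pool 3 (10.9%). Without C57 pool 1 it was 2 (12.9% of all features). Robo2 had both arrays in 1 MF1 pool only and was not tested.

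**Figure D1:**
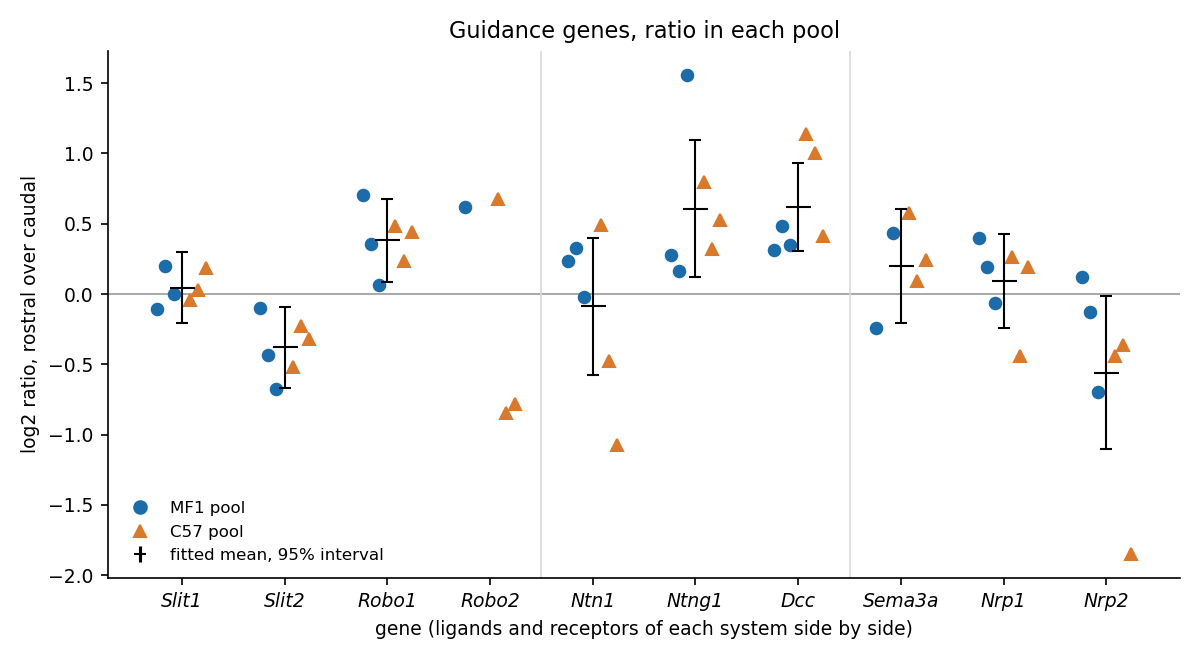
Log2 ratio, rostral over caudal (y axis), for the 10 guidance genes (x axis), with a circle for each MF1 pool, a triangle for each C57 pool, and a bar for the fitted mean with its 95% confidence interval. The 6 pools of Slit2 lie between -0.68 and -0.10, and those of Robo1, Dcc and Ntng1 all lie above 0; Robo2 has 4 pools and no fitted mean.

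Among the Slits, Slit2 was on the caudal side in every pool. Its ratios were -0.10, -0.44 and -0.68 in MF1 pools 1 to 3 and -0.52, -0.23 and -0.32 in C57 pools 1 to 3. The strains overlapped throughout, and MF1 pool 1 lay closest to 0. The fitted ratio was -0.38 (95% confidence interval -0.67 to -0.09), which is 1.30-fold higher caudally (limma, unadjusted p = 0.0171, adjusted p = 0.484). A ratio below 0 in 6 of 6 pools was found for 2.5% of the 10596 features with 6 pools. On single arrays Slit2 was below 0 on 11 of 12, as were 1.05% of the 11071 probes with 12 values (below 0 on 11 or more). The exception, the MF1 pool 1 array with rostral RNA in Cy3, stood at 0.025.

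Slit1, a paralogue of Slit2 with the same receptors, lay close to 0. Its pools gave -0.11, 0.20 and -0.0015 in MF1 and -0.040, 0.031 and 0.19 in C57, so that 3 lay on each side. The fitted ratio was 0.045 (-0.21 to 0.30; limma, adjusted p = 0.918), an interval that ends at 1.23-fold higher rostrally and 1.16-fold higher caudally. Slit2 lay below Slit1 in 5 of 6 pools, by -0.42 ± 0.25 (SD, n = 6). This pair, like the other pairs of members set side by side below, was picked with the values known and carries no test. Slit3, the remaining Slit, had a ratio of 0.010 ± 0.14 over 2 probes.

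Robo1, a receptor for the Slits on commissural and cortical axons, was on the rostral side in every pool. The pools gave 0.70, 0.35 and 0.067 in MF1 and 0.49, 0.24 and 0.44 in C57. MF1 held both the highest and the lowest of the 6. Its fitted ratio was 0.38 (0.09 to 0.68), 1.30-fold higher rostrally (limma, unadjusted p = 0.0189, adjusted p = 0.484). Above 0 in 6 of 6 pools were 3.47% of features. Both arrays of a pool lay on the same side in 3 of 6 pools. In C57 pools 1 and 2 the arrays with rostral RNA in Cy3 gave -0.066 and -0.48, and those with rostral RNA in Cy5 gave 1.04 and 0.95.

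Robo1 and its ligand Slit2 thus had ratios on opposite sides with the same size. Robo1 lay above Slit2 in 6 of 6 pools, by 0.76 ± 0.17 (SD, n = 6), from 0.47 in C57 pool 2 to 1.002 in C57 pool 1. That count follows from the sides of the 2 genes and adds nothing to them. The spread of this difference is smaller than that of either gene alone (SD 0.22 for Robo1 and 0.21 for Slit2). It was not set against the spread for other pairs of genes, so it does not show that the 2 genes vary together. The levels of the 2 genes were not compared, since a ratio within an array carries no level.

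For Robo2, which shares Slit ligands with Robo1, pools with both arrays gave 0.62 in MF1 pool 1 and 0.68, -0.85 and -0.78 in C57 pools 1 to 3. In MF1 pools 2 and 3 a single array had a value, at 0.27 and -0.081. The C57 pools lay on both sides of 0, with a mean of -0.32 ± 0.86 (SD, n = 3).

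In the netrin system Dcc, the attractive netrin receptor carried by growing cortical axons, had the smallest p of the members. Averaged over its 2 probes, its pools gave 0.32, 0.48 and 0.35 in MF1 and 1.13, 0.999 and 0.41 in C57. All 6 were above 0, and C57 pools 1 and 2 stood above the rest. Fitted over both strains, the ratio was 0.62 (0.30 to 0.93), 1.53-fold higher rostrally (limma, unadjusted p = 0.00241, rank 94 of 14418; adjusted p = 0.353).

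The probes of Dcc shared the mean but not the pattern. Probe 1, assigned to a RefSeq transcript in the platform annotation, gave -0.14, 0.12 and 0.35 in MF1 and 1.88, 1.503 and 0.30 in C57. Probe 2, assigned to a GenBank cDNA, gave 0.78, 0.85 and 0.35 in MF1 and 0.38, 0.50 and 0.53 in C57. Probe 2 was above 0 on 12 of 12 arrays, from 0.11 to 0.94, as were 0.253% of the probes with 12 values; probe 1 was above 0 on 9 of 12. Fitted by probe, the ratios were 0.67 (0.15 to 1.18; limma, unadjusted p = 0.0183, adjusted p = 0.479) for probe 1 and 0.56 (0.29 to 0.84; unadjusted p = 0.00207, adjusted p = 0.329) for probe 2, with 0 of 15289 probes past the adjusted threshold. The strain difference of MF1 minus C57 was -1.12 for probe 1 (-2.15 to -0.09, limma, unadjusted p = 0.0371, adjusted p = 0.793). For probe 2 it was 0.19 (-0.37 to 0.74, limma, unadjusted p = 0.447, adjusted p = 0.966), so the high C57 ratios of the gene came from probe 1.

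Ntn1, the ligand of Dcc, had pools on both sides. MF1 gave 0.24, 0.33 and -0.020 and C57 gave 0.49, -0.48 and -1.075. The C57 pools spanned 1.56 log2 units and enclosed all MF1 pools. Its fitted ratio was -0.087 (-0.57 to 0.40; limma, adjusted p = 0.916).

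Ntng1, whose membrane-bound product is best known on thalamic axons, was above 0 in every pool. The pools gave 0.27, 0.17 and 1.56 in MF1 and 0.80, 0.32 and 0.53 in C57. MF1 pool 3 stood above the other 5. The fitted ratio was 0.61 (0.12 to 1.096), 1.52-fold higher rostrally (limma, unadjusted p = 0.0218, adjusted p = 0.489), and 0.38 without MF1 pool 3.

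The arrays behind Ntng1 split by dye in MF1. With rostral RNA in Cy5 the 3 MF1 arrays gave 1.65, 1.63 and 1.62, and with rostral RNA in Cy3 they gave -1.096, -1.30 and 1.501. With Cy5 taken as numerator, both arrays of MF1 pools 1 and 2 thus had a ratio of Cy5 over Cy3 above 0, whichever RNA Cy5 carried. The gaps between the arrays of a pool were 2.74 and 2.92, against a median gap of 0.40 over all probes and MF1 pools. In C57 the 6 arrays ran from 0.088 to 0.91, all above 0. The ratio was 0.08 from the arrays with rostral RNA in Cy3 alone and 1.13 from those with rostral RNA in Cy5 alone.

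**Figure D2:**
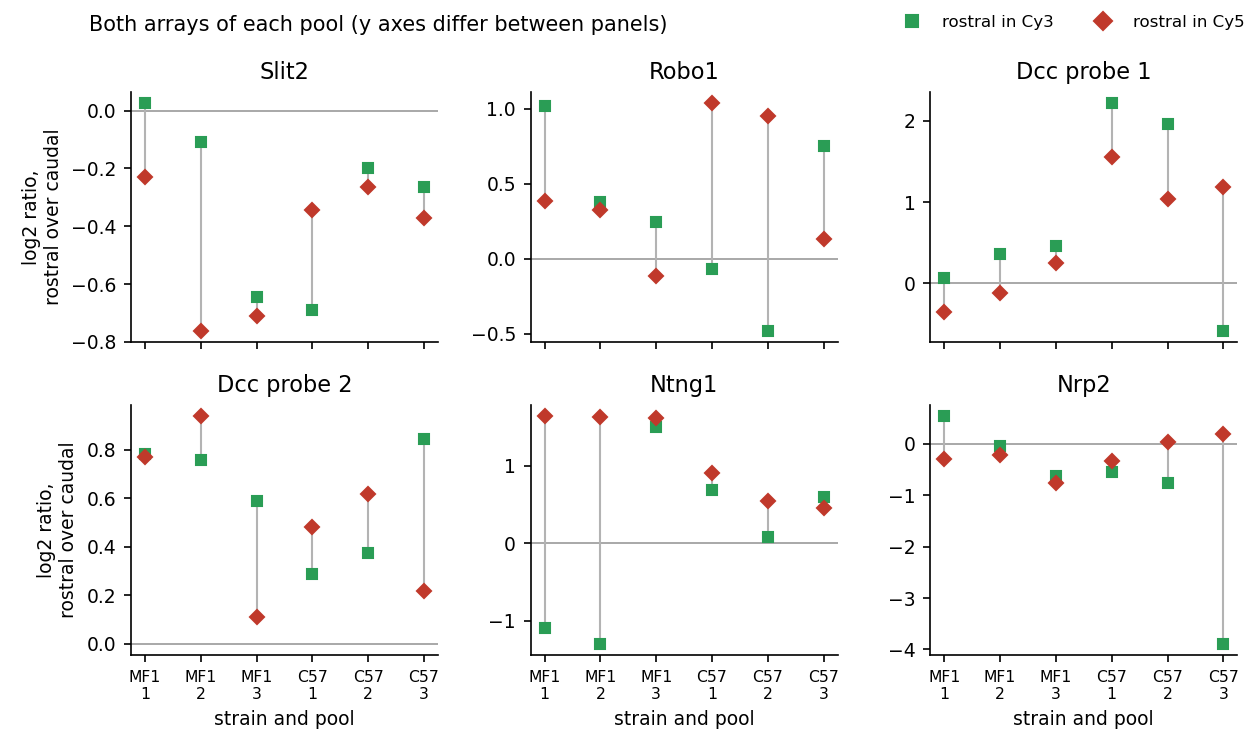
Log2 ratio, rostral over caudal (y axis), on both arrays of each pool (x axis), squares with rostral RNA in Cy3 and diamonds with rostral RNA in Cy5, for the probes of the 5 genes with unadjusted p under 0.05. Slit2 is below 0 on 11 of 12 arrays and Dcc probe 2 above 0 on 12 of 12, while Ntng1 in MF1 pools 1 and 2, Robo1 in C57 pools 1 and 2 and Nrp2 in C57 pool 3 lie on opposite sides on the arrays of a pool.

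Among the neuropilins, which are the binding parts of semaphorin receptors, Nrp2 lay on the caudal side in 5 of 6 pools. The pools gave 0.12, -0.13 and -0.70 in MF1 and -0.44, -0.36 and -1.85 in C57. C57 pool 3 lay 1.15 below the next pool. The fitted ratio was -0.56 (-1.11 to -0.01), 1.47-fold higher caudally (limma, unadjusted p = 0.0465, adjusted p = 0.546). In limma's fit of the 12 arrays the interval was -1.24 to 0.12 (unadjusted p = 0.0970), and the unadjusted p was 0.0519 with ceiling values kept and 0.0646 with single arrays kept. With 1 pool left out it ran from 0.0345 to 0.146.

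The size of the Nrp2 ratio rested in large part on 1 array. In C57 pool 3 the array with rostral RNA in Cy3 gave -3.89 and the array with rostral RNA in Cy5 gave 0.19. Without that pool the fitted ratio was -0.32 (limma, unadjusted p = 0.100). The other 5 pools ran from -0.70 to 0.12.

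Nrp1, the receptor part for semaphorin 3A, had pools of 0.40, 0.19 and -0.062 in MF1 and 0.26, -0.44 and 0.19 in C57, so 4 of 6 lay above 0. The fitted ratio was 0.090 (-0.24 to 0.42; limma, adjusted p = 0.865). Nrp2 lay below Nrp1 in 5 of 6 pools, by -0.65 ± 0.74 (SD, n = 6). Sema3a, the ligand of Nrp1, gave -0.24 and 0.43 in MF1 pools 1 and 3 and 0.58, 0.091 and 0.24 in C57, with MF1 pool 2 left out for want of 1 array. Its fitted ratio was 0.20 (-0.21 to 0.60; limma, adjusted p = 0.745), and was 0.029 without MF1 pool 3 and 0.37 without MF1 pool 1.

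Ordered by fitted ratio, the members ran from Dcc (0.62), Ntng1 (0.61) and Robo1 (0.38) over Sema3a, Nrp1, Slit1 and Ntn1 to Slit2 (-0.38) and Nrp2 (-0.56). The intervals of neighbours in this order overlapped in every case. The median of the 9 members was 0.090, against 0.0091 over all features.

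The strains gave means of like size for Slit1, Slit2 and Robo1. For Slit2 they were -0.41 ± 0.29 in MF1 and -0.35 ± 0.15 in C57 (SD, n = 3 pools each), and for Robo1 0.37 ± 0.32 and 0.39 ± 0.13. Those of Ntng1 were 0.67 ± 0.77 and 0.55 ± 0.24. Its difference of MF1 minus C57, 0.12, was -0.33 without MF1 pool 3. It was -0.76 with rostral RNA in Cy3 alone and 0.99 with rostral RNA in Cy5 alone. The largest differences of MF1 minus C57 were 0.65 for Nrp2 (-0.44 to 1.74), 0.54 for Ntn1 (-0.44 to 1.51) and -0.47 for Dcc (-1.09 to 0.16). Without C57 pool 3 those of Nrp2 and Ntn1 were 0.17 and 0.18, without C57 pool 1 that of Ntn1 was 0.96, and with arrays scaled that of Dcc was -0.19. Of the 9 members, 0 differed between strains at an adjusted p under 0.05 (limma, adjusted p between 0.927 and 0.999), where 0% of all features did. At an unadjusted p under 0.05 it was 0 members, against 6.1% of all features. For Dcc that holds for the mean of its 2 probes, while probe 1 alone had an unadjusted p of 0.0371 (limma). Among the 8 members with 6 pools, 0 had MF1 and C57 pools that did not overlap, against 9.46% of features. For Slit2 and Robo1 the intervals of the difference, -0.63 to 0.53 and -0.60 to 0.58, are wider than the ratios themselves, so these pools do not show that the strains are alike.

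The 10 members were also read among 101 genes of the same systems, which adds further ligands and receptors and the adaptors, kinases and cytoskeletal proteins that act below them. Of these, 73 were tested, with a median ratio of -0.0037, 36 above 0 and 37 below. Over all genes tested 0 passed, and 10 (13.7%) had an unadjusted p under 0.05, 4 higher and 6 lower rostrally. Without the members it was 5 of 64 (7.81%), near the 8.98% of all features. By system, with the members included, the unadjusted count was 3 of 11 (27.3%) in the Slit and Robo list. It was 4 of 21 (19%) in the netrin list and 3 of 41 (7.32%) in the semaphorin list. Among those counted were the members Slit2 and Robo1 in the first list, Dcc and Ntng1 in the netrin list and Nrp2 in the semaphorin list. As members were chosen with earlier results of these data known, these shares are not a test of a system.

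Limk2, a kinase that inactivates the actin-severing protein cofilin below semaphorin receptors, had the smallest p of the 73. Its ratios were -0.46, -0.64 and -0.64 in MF1 and -0.59, -0.39 and -0.34 in C57. All 6 lay below 0 within a narrow range, with a mean of -0.51 ± 0.13 (SD, n = 6; limma, unadjusted p = 0.00197, adjusted p = 0.341). The related kinase Limk1 had a ratio of 0.052 ± 0.12.

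Other genes of small p were few and on both sides. Sema4b, a transmembrane semaphorin, had a ratio of 0.45 ± 0.30 with 6 of 6 pools above 0. Lrrc4, which binds netrin G2, had one of 0.40 ± 0.46 in 5 pools. On the caudal side Flrt3, a membrane protein that can associate with Robo1, had a ratio of -0.62 ± 0.50, below 0 in 5 of 6 pools. Ntn3, a further secreted netrin, had one of -0.47 ± 0.63, with 0.0050 in MF1 and -0.94 in C57. Vasp, an actin regulator named after its values were seen, had one of -0.31 ± 0.41, with 0.0022 in MF1 and -0.62 in C57. For these 5 genes limma's adjusted p lay between 0.484 and 0.555. Other receptors of the same cues gave ratios of 0.28 ± 0.83 for Unc5c, a repulsive netrin receptor, and -0.083 ± 0.32 for Neo1, a receptor related to Dcc. Of the plexins, which transduce semaphorin signals, Plxna1 had a ratio of -0.080 ± 0.24, and these last 3 did not pass either (limma, adjusted p of 0.799 or more).

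**Figure D3:**
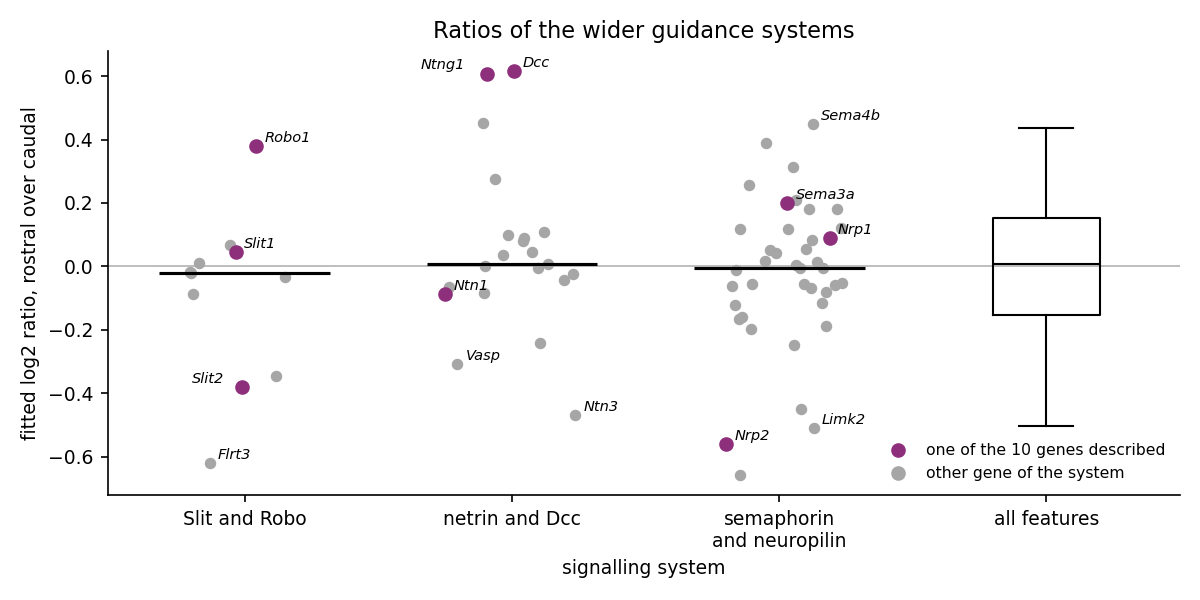
Fitted log2 ratio, rostral over caudal (y axis), for the 73 tested genes of the Slit, netrin and semaphorin systems (x axis), the 9 tested members in purple, with a line at each list's median; the box gives the median and quartiles of all 14418 features and its whiskers the 5th and 95th percentiles. The medians of the 3 lists lie between -0.020 and 0.0062, and Dcc, Ntng1, Robo1, Slit2 and Nrp2 lie away from them. So do genes that are not members, such as Flrt3 (-0.62), Limk2 (-0.51), Ntn3 (-0.47) and Sema4b (0.45).

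Markers of cell types that carry these genes were read on the same scale. In bulk tissue, fewer cells of a type and less RNA per cell cannot be told apart, and ratios carry no levels, so the labelled tissue could not be checked for the presence of its markers. Of all 14418 features, 7437 lay above 0 and 6981 below. Genes of postmitotic neurons, which carry Robo1 and Dcc on their axons, had a median of 0.13, with 8 of 10 above 0. Of these 8, Tubb3 (0.0014), Map2 (0.012) and Stmn2 (0.056) lay close to 0. The pool medians ran from -0.22 to 0.08 in MF1 and from -0.03 to 0.23 in C57. The genes of smallest p on each side were Bcl11b (0.41 ± 0.24) and Mapt (-0.28 ± 0.18), and the highest ratio was that of Tbr1 (0.53 ± 0.66). Genes of cortical progenitors had a median of 0.12, with 7 of 9 above 0, and those of smallest p on each side were Hes5, a Notch target (0.49 ± 0.50), and Lhx2 (-0.50 ± 0.13).

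On the caudal side, beside Slit2 and Nrp2, lay genes of meninges and mesenchyme, with a median of -0.41 and 7 of 7 below 0, such as the transcription factor Twist2 (-0.45 ± 0.49). Their pool medians ran from -0.19 to 0.05 in MF1 and from -1.02 to -0.44 in C57, lowest in C57 pool 3. Nrp2 was lowest in that pool too, through 1 array (-3.89 with rostral RNA in Cy3, 0.19 with rostral RNA in Cy5). Slit2 was not lowest there (-0.32). Choroid plexus genes had a median of -0.34 with 4 of 4 below 0, such as the water channel Aqp1 (-0.61 ± 0.70), and pool medians from -0.55 to -0.15 in MF1 and from -0.91 to 0.0085 in C57. Blood vessel genes, beside the neuropilins, had a median of -0.02 with 3 of 9 above 0 (Tie1 0.22 ± 0.77, Icam2 -0.79 ± 1.20). Diencephalic genes, beside Ntng1, had one of -0.05 with 2 of 5 above 0 (Irx1 0.29 ± 0.13, Foxa2 -0.41 ± 0.44). Genes of the ventral telencephalon had one of -0.02 with 4 of 9 above 0 (Isl1 0.16 ± 0.36, Dlx5 -0.63 ± 0.32). The part of these cell types in the ratios of the members was not tested.

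Of 8878 other named genes with 6 pools, those nearest in pattern were picked by the root mean square difference over the 6 pool ratios, as a description of these arrays. Nearest to Slit2 were Btg1 (0.14), an inhibitor of proliferation, and Ppp1r15a (0.14), a stress-induced phosphatase regulator. Robo1 had Ccng2 (0.096), cyclin G2, and Esm1 (0.10), an endothelial proteoglycan, and Dcc had Amer1 (0.19), a partner of APC, and Hdhd5 (0.21). For Ntng1 they were Itm2b (0.17), a membrane protein, and Sprr2f (0.24), and for Nrp2 Ttyh2 (0.16) and the potassium channel subunit Kcne2 (0.24). Slit1 was matched by Ifrd2 (0.067) and Kcnip4 (0.069), Ntn1 by Tnxb (0.14), tenascin X, and Ptgfrn (0.15), and Nrp1 by Zfp296 (0.078) and Hivep1 (0.094). The match is over 6 points only.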

How the data were processed

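Rostral and caudal RNA of 6 pools was compared on 12 two-colour arrays, and the labels name Trizol extraction and the design text SMART amplification. The authors deposited 1 log2 ratio per probe and array; scale and ceiling (16.61, the log2 of 100000) were read from the values, since image analysis, background correction and normalization were not given in the sources used here. Ceiling values (701) were set to missing. The median of an array lay between -0.41 and 0.475 and was subtracted from its values. Arrays with rostral RNA in Cy3 were turned, taking Cy5 as numerator. The deviations of the 2 deposited arrays of a pool correlated between -0.35 and -0.15 in 5 pools, as ratios by dye would, and at 0.00 in C57 pool 3. No intensities were used, so signal over background is unknown, and the number of arrays limits the precision.

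Arrays of a pool were averaged where both had a value, then probes of a gene, and features with at least 2 pools per strain were fitted (limma 3.58.1, R 4.3.3, a mean per strain, 1 shared spread, tested on simulated data). The platform annotation gave 1 symbol for 16864 probes, several for 139 and none for 4995, and it can be old; 0 symbols changed through RefSeq. Named were all members, the 5 genes per side of smallest p in the wider list, 2 nearest patterns per member and, of the marker and reference lists, the genes of smallest p. Named outside these rules were Vasp, Limk1, Slit3, Unc5c, Neo1, Plxna1, Tbr1, the neuron genes close to 0 and the reference genes against their known side. The members and lists were chosen with earlier results of these data known. Alternatives covered centring, scaling, the ceiling, dye orientation, single arrays, complete features, probe choice, each pool left out, the pools as a random block and the pool number as a block. Pool numbers did not pair the strains (correlations of deviations of -0.14, 0.06 and -0.0039).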

Additional observations from a re-analysis of the deposited data

Results flagged for a closer look

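The array ratios of Nrp2 in C57 held 1 value far from the other 5, -3.89 on the pool 3 array with rostral RNA in Cy3. The array ratios of Slit2 in C57 held 1 value apart from the rest, -0.69 on the pool 1 array with rostral RNA in Cy3, though the other 5 lay below 0 too. These were 2 of 32 sets of 4 to 6 values examined, and chance gives about 1 in 20.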

How the results depend on the processing

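Dcc, Robo1 and Ntng1 kept ratios above 0 and Slit2 and Nrp2 below 0 in the 16 alternative fits, and 0 members passed the adjusted threshold in any of them. Many of these fits could not turn a sign. Leaving out a pool could not do so for Dcc, Robo1, Ntng1 or Slit2, whose 6 pools lay on 1 side. For these genes and Nrp2 the random block, single arrays, complete features and the pool number as a block repeated the main estimate. The count of members with an unadjusted p under 0.05 was 5 in the main fit, beside 8.98% of all features. It was 3 with arrays not centred (15% of all features) and 1 with rostral RNA in Cy3 alone (14.8%). With a pool left out the count was 2 to 5. It was 3 without MF1 pool 1 (7.37% of all features), MF1 pool 2 (8.12%) or C57 pool 3 (10.9%). Without C57 pool 1 it was 2, Dcc and Nrp2 (12.9% of all features). Uncentred, the median of all features was -0.18; Slit1 turned to -0.14 and Nrp1 to -0.10, and Robo1 was at 0.19. With rostral RNA in Cy5 alone Slit1 was at -0.12 and Ntn1 at 0.081; with pools left out Ntn1 ran from -0.30 to 0.093. Limma on the 12 arrays passed 21 features and 25 probes (0 on pool means), and features complete on 12 arrays gave 6 and 6. With the pool number as a replicate block 0 features passed. There 4 members, all of the 5 but Slit2 (limma, unadjusted p = 0.0503), had an unadjusted p under 0.05, as did 6.77% of all features.

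Strain differences of MF1 minus C57 turned as follows. With rostral RNA in Cy5 alone Nrp1 was at -0.22, Nrp2 at -0.39, Ntn1 at -0.19 and Slit1 at 0.085; with rostral RNA in Cy3 alone Ntng1 was at -0.76, Robo1 at 0.48 and Slit2 at 0.14. Scaled, Robo1 was at 0.12. With pools left out Nrp1 ran from -0.054 to 0.30, Ntng1 from -0.33 to 0.37, Robo1 from -0.18 to 0.14, Sema3a from -0.55 to 0.13, Slit1 from -0.11 to 0.038 and Slit2 from -0.20 to 0.085. The causes were not tested. A single dye orientation leaves a dye effect in the ratio by construction.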
